A study of Mus musculus with 10 samples.

Results

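The genes described here are 10 members of the transforming growth factor beta (TGF-beta) and bone morphogenetic protein (BMP) response: Smad6, Smad7, Skil, Pmepa1, Tgif1 and Bambi, which encode restrainers of Smad signalling, and Id1, Id2, Id3 and Id4, which encode inhibitors of basic helix-loop-helix (bHLH) transcription factors. They were taken by name, all 10 were found among the 36047 genes in the files, and all 10 passed the filter on low counts that left 13363 genes for the test. The RNA came from liver cells labelled as quiescent hepatic stellate cells, the perisinusoidal cells that store vitamin A, of male C57BL/6 mice. Every culture was kept for 5 h after isolation. For the next 4 h, starving medium held either 500 ng/mL of recombinant mouse amphiregulin (Areg), which activates the epidermal growth factor receptor (5 libraries), or the control treatment (5 libraries). No genetic change is named in either group, and a shared mouse or dish behind any of the libraries is not recorded. The p-values therefore reflect variation from library to library, part or all of which could be technical.

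TGF-beta, activin and BMP ligands bind pairs of receptor kinases, which phosphorylate receptor-activated Smads (Smad2 and Smad3 after TGF-beta or activin; Smad1, Smad5 and Smad9 after BMPs). These join Smad4 and switch on target genes, and several of those targets encode proteins that shut the pathway down again. Id genes are classical targets of the BMP branch. In liver injury, TGF-beta is a main signal that turns stellate cells into matrix-producing myofibroblasts.

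The libraries held 10125184 to 20057962 estimated counts each. All 12 stellate cell markers were at a mean of at least 1 CPM, the count scaled to library size. Their summed level in TPM, which also allows for transcript length, was 10364 to 11180 in control libraries and 9652.5 to 9998 with Areg, without overlap; Dcn and Ecm1 made up most of it. Ecm1 alone went from 4412 to 3568 TPM and was called lower, as were Lrat, Ngfr, Lhx2 and Cygb, while the other 7, Dcn among them (5390 and 5274 TPM), were not called. RNA of other liver cells was also present. All 9 endothelial markers passed the same level, with sums of 2528 to 2902 TPM in control and 2513 to 2604.5 TPM in Areg libraries. So did all 7 hepatocyte markers, at 1204 to 1794 and 1273.5 to 1593 TPM, and all 7 macrophage markers, at 404 to 473 and 414 to 467 TPM. The endothelial marker Tie1 was called lower (130.9 CPM in control and 109.0 CPM in Areg libraries). The hepatocyte marker Cyp2e1 (216 and 253 CPM) and the macrophage marker Cd14 (78.2 and 93.6 CPM) were called higher. Over all genes tested, 8.34% were called higher and 8.32% lower. The endothelial markers ranged in control mean from 2.10 TPM (Vwf) to 1259 TPM (Cdh5, the endothelial cadherin), and the stellate markers from 6.47 TPM (Hand2) to 5390 TPM (Dcn). None of 6 lymphocyte and none of 4 cholangiocyte markers reached 1 CPM. The part of each cell type in the levels below, and that of the lower stellate marker sum, was not tested. In such bulk RNA, fewer cells of a type and less RNA per cell cannot be told apart. On the first principal component, controls 3 and 4 lay at 46.6 and 28.6 and all others at -16.5 to 0.46. These 2 controls also had the fewest estimated counts, 10125184 and 10950603; the part of depth in their position was not tested. Each member's change is therefore also given without controls 3 and 4, as are calls of other named genes that were lost or moved by over 1.5 times.

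The Id genes are paralogs, and their counts are only as separate as their sequences. The stretches below are the 84 coding bases of Id1, read in frame, that the other Id genes matched best, with their matches (GENCODE M21, GRCm38). Likeness among Id2, Id3 and Id4 did not enter the choice. They are printed to show how far reads of one Id gene could be taken for another. All lie in exon 1 of the most abundant coding transcript, at chr2:152736554-152736637 (plus strand) for Id1, chr12:25095783-25095866 (minus strand) for Id2, chr4:136144038-136144121 (plus strand) for Id3 and chr13:48261729-48261812 (plus strand) for Id4. Capitals mark the bases that all 4 genes share.
Id1: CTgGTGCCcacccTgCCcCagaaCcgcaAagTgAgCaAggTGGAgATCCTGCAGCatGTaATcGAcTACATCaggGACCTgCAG
Id2: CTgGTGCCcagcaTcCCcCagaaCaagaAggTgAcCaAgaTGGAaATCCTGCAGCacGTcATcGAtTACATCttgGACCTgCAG
Id3: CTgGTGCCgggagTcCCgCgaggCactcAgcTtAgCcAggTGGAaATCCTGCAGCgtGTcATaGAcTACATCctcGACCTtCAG
Id4: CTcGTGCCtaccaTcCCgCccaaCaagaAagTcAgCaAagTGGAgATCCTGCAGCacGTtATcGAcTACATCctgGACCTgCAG

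The 4 genes shared 51 of these 84 bases (60.7%). Id1 and Id2 were identical at 69 bases, as were Id2 and Id4, and Id1 and Id3 at 57. The longest identical run between any 2 of the coding sequences was 17 bases, between Id1 and Id4. No word of 31 bases was shared between any of the 10 genes. Smad6, Smad7, Skil, Pmepa1, Tgif1, Id1 and Id3 shared none with any other gene whose transcripts were counted. Id2 shared 39 of its 2433 words with the predicted gene Gm6175, which was listed at 0 estimated counts in every library. Bambi shared 24 words (0.476%) with other genes, 17 of them with Bambi-ps1, which had 9 to 23 estimated counts per library. Id4 shared 2 words (0.0524%). No other annotated gene of the files overlapped any of the 10 loci. Annotated genes without transcripts in the files were not checked, so antisense reads from such a neighbour were not tested for.

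Measured per transcript length, the 10 genes spanned a wide range of levels in control cells. Tgif1, a homeobox corepressor of Smad2 and Smad3, led with 249.7 ± 12.98 TPM, followed by Id3 with 241.5 ± 19.4 TPM (mean ± SD, n = 5, as for every pair below). Their ranges overlapped. Id4 stood at 96.2 ± 10.4 TPM, Id2 at 79.1 ± 1.63, Pmepa1 at 57.0 ± 12.95 and Skil at 27.2 ± 4.13 TPM. Smad7, at 17.7 ± 2.34 TPM, and Smad6, at 17.4 ± 1.86 TPM, could not be ranked because their ranges overlapped. Bambi, at 9.40 ± 0.825 TPM, and Id1, at 5.39 ± 0.537 TPM, were the lowest. All other neighbours in this order had separate ranges. With Areg the order of the means was the same, and the ranges of Smad7 and Smad6 were the only neighbouring ones to overlap.

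**Figure D1:**
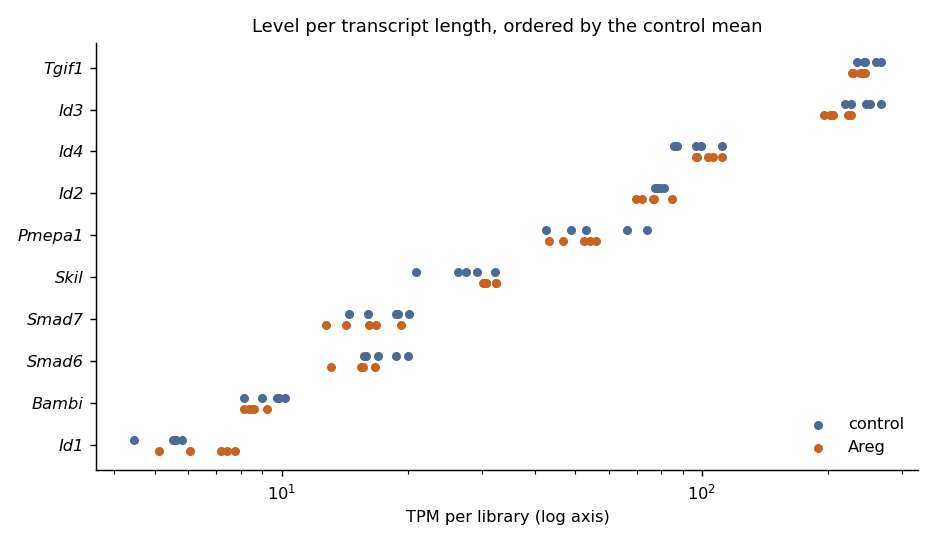
TPM of each gene in each library on a log axis, with control libraries in blue and Areg libraries in orange, ordered by the control mean. Each point is 1 library; Tgif1 and Id3 sit at 195 to 267 TPM, and Id1 at 4.45 to 7.75 TPM is the lowest.

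For 9 of the 10 genes no difference between Areg and control libraries passed the test, which does not show that their levels were equal. By edgeR's quasi-likelihood test, 1 of the 10 was called higher at an adjusted p under 0.05 and 0 were called lower. Of all genes tested, 16.7% were called: 8.34% of all genes tested were higher and 8.32% lower. The member called was Skil. DESeq2 and limma-voom also called 1 member higher and 0 lower. At an unadjusted edgeR p under 0.05 there were 4, of which Skil, Id1 and Id4 were higher and Id3 lower; over all genes tested the share was 31.4%. The median log2 fold change of the members was -0.05, beside -0.01 over all genes tested, and the median size of the change was 0.12, beside 0.14. Without controls 3 and 4, the members' median was 0.04 and again 1 was called higher and 0 lower.

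**Figure D2:**
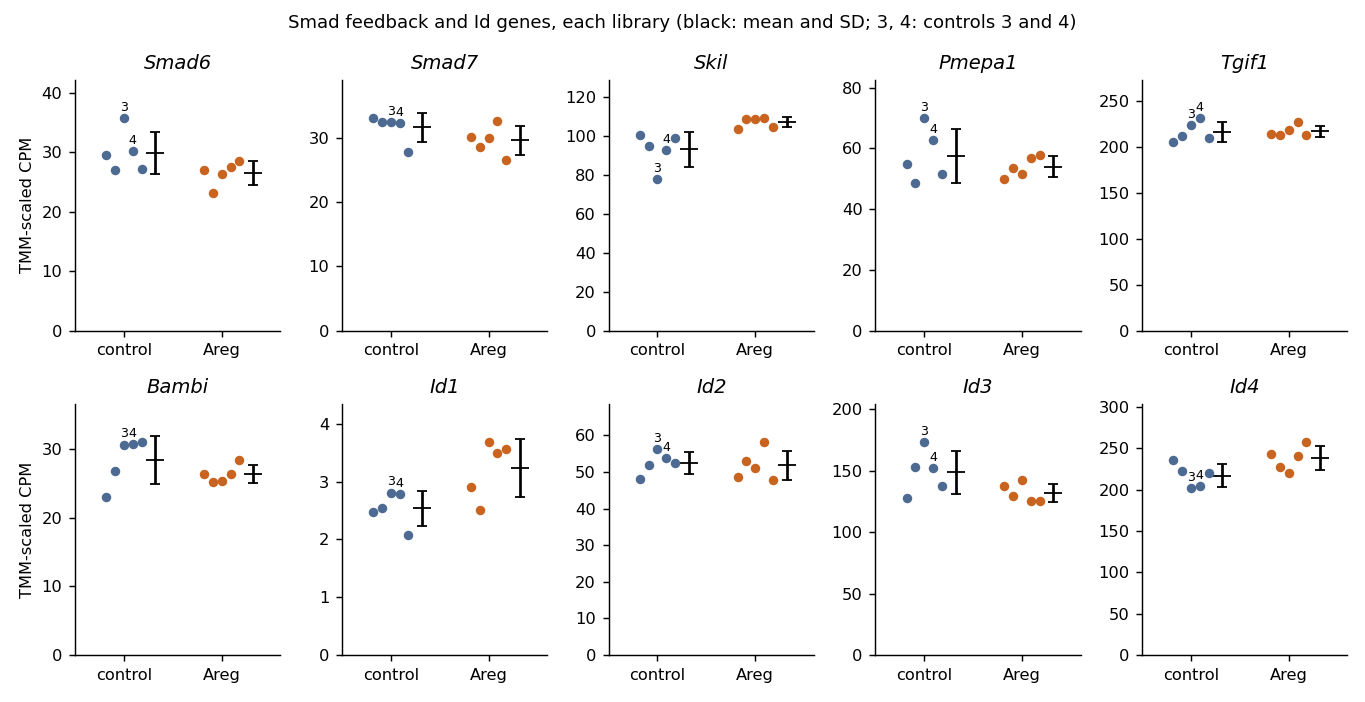
TMM-scaled CPM of each of the 10 genes in each library (points; blue control, orange Areg; controls 3 and 4 numbered) with the group mean and SD in black, each vertical axis starting at 0. For Skil the 5 Areg libraries (103.7 to 109.2 CPM) lie above the 5 controls (77.9 to 100.6 CPM); for the other 9 genes the groups overlap.

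Skil encodes SnoN, a corepressor that binds Smad complexes and holds their targets silent until TGF-beta signalling leads to its breakdown. The gene (chromosome 3, 31095058 to 31122577, plus strand) had CPM values, scaled by the trimmed mean of M values (TMM), of 100.6, 94.8, 77.9, 92.8 and 99.0 in the controls, in order of their number. The Areg libraries had 103.7, 108.8, 108.5, 109.2 and 104.7 CPM, in the same order. The groups did not overlap, which was so for 14.7% of all genes tested, 7.66% in this direction and 7.05% in the other, and control 3 was the lowest library. The means were 93.0 ± 9.01 and 107.0 ± 2.59 CPM, a rise of 14.8% (log2 fold change 0.20, SE 0.06, edgeR adjusted p = 0.0322).

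The call for Skil was close to the threshold. Without controls 3 and 4 the log2 fold change was 0.13 and the call stayed (edgeR adjusted p = 0.0385). It was lost under 9 of 25 other settings, with adjusted p up to 0.212; these were a correction for transcript length, both TPM scales, removal of a length and GC trend, and leaving out control 4 or any one of Areg 2, 3, 4 and 5. The log2 fold change was 0.10 with that trend removed and 0.19 to 0.23 in the other 8, so in those the size of the change was kept. On the TPM scale the groups overlapped, at 20.9 to 32.1 TPM in control and 30.2 to 32.4 TPM in Areg libraries. The weighted effective length of Skil's transcripts was 5591.5 ± 168 bases in control and 5461 ± 168 bases in Areg libraries.

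Smad6 and Smad7 encode the inhibitory Smads. Smad6 mainly restrains BMP signals, and Smad7 binds activated receptors of both branches and brings Smurf ubiquitin ligases to them. Smad6 (chromosome 9, 63953076 to 64022059, minus strand) had 29.5, 26.9, 35.7, 30.1 and 27.2 CPM in the controls and 27.0, 23.2, 26.4, 27.6 and 28.5 CPM with Areg. Control 3 was the highest library, Areg 2 the lowest, and the groups overlapped. The log2 fold change was -0.17, with a 95% interval from -0.34 to 0.00 (edgeR adjusted p = 0.161), and it was -0.07 without controls 3 and 4. With the length and GC trend removed it was 0.05 and not called.

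Smad7 (chromosome 18, 75367529 to 75395935, plus strand) had 33.1, 32.5, 32.4, 32.3 and 27.7 CPM in the controls and 30.2, 28.5, 30.0, 32.7 and 26.6 CPM with Areg. Controls 1 to 4 lay close together, control 5 lay below them, and the groups overlapped. The log2 fold change was -0.10 (95% interval -0.24 to 0.05, edgeR adjusted p = 0.356). It was -0.07 without controls 3 and 4, and 0.06 with the length and GC trend removed.

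Pmepa1, Tgif1 and Bambi act at other steps. Pmepa1 encodes a membrane protein that sequesters receptor-activated Smads, and Bambi a receptor-like protein without a kinase domain that blocks TGF-beta receptor pairing and is known in stellate cells as a brake on TGF-beta. Pmepa1 (chromosome 2, 173224458 to 173276533) had 57.5 ± 8.78 CPM in control and 54.0 ± 3.37 CPM in Areg libraries. Controls 3 and 4 were its highest libraries, at 70.0 and 62.7 CPM, and without them its log2 fold change turned from -0.09 to 0.06; neither passed (edgeR adjusted p = 0.525 and 0.511). Tgif1 (chromosome 17, 70844205 to 70853546) had 216.9 ± 10.9 and 217.3 ± 6.01 CPM, a log2 fold change of 0.00 with a 95% interval from -0.09 to 0.10. The sign of its change differed between settings, from -0.08 on a TPM scale to 0.06 without controls 3 and 4. Bambi (chromosome 18, 3507923 to 3516404) had means of 28.4 and 26.3 CPM, a log2 fold change of -0.10 with a 95% interval from -0.27 to 0.07 (edgeR adjusted p = 0.405). Its control libraries spread from 23.0 to 30.96 CPM and took in the whole Areg range of 25.3 to 28.4 CPM. Without controls 3 and 4 the log2 fold change of Bambi was -0.02.

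Id proteins have a helix-loop-helix but no basic region, so they pair with E proteins such as those of Tcf3, Tcf4 and Tcf12 and keep them off DNA. In TPM, which allows for length, Id3 was the most abundant Id transcript. In CPM, Id4 stood above Id3, at 216.9 and 148.65 in control and 237.9 and 131.8 in Areg libraries. Id3 made up 57.1 ± 3.01% of the summed Id TPM in control libraries, Id4 22.8 ± 2.86%, Id2 18.7 ± 0.507% and Id1 1.28 ± 0.115%. With Areg the shares were 53.0 ± 2.27, 26.1 ± 1.71, 19.2 ± 1.67 and 1.69 ± 0.265%, in the same order. The sum was 407 to 440 TPM in control and 385 to 408 TPM in Areg libraries.

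Id1 showed the largest fold change of the 10 genes and the least precise one. The gene (chromosome 2, 152736251 to 152737410, plus strand) had 44, 38, 28, 30 and 30 estimated counts in the controls and 52, 49, 73, 49 and 65 with Areg. This was 2.48, 2.54, 2.81, 2.79 and 2.07 CPM in the controls and 2.90, 2.51, 3.68, 3.49 and 3.56 CPM with Areg. Areg 2 fell within the control range and the other Areg libraries lay above it. The means were 2.54 ± 0.300 and 3.23 ± 0.501 CPM, a log2 fold change of 0.35 with a 95% interval from 0.01 to 0.70 (edgeR unadjusted p = 0.0438, adjusted p = 0.146). Counting alone gives a coefficient of variation of 17.2% in the controls and 13.2% with Areg; the observed values were 11.8 and 15.5%. The log2 fold change was above 0 in all 25 other settings, from 0.26 to 0.45 (the value without controls 3 and 4), and called in 0 of them.

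Id3 (chromosome 4, 136143497 to 136145755, plus strand) had 127.6, 153.0, 173.1, 152.2 and 137.4 CPM in the controls and 137.2, 129.2, 142.4, 125.5 and 125.0 CPM with Areg. Control 3 was the highest library, and controls 1 and 5 lay inside the Areg range. The log2 fold change was -0.17 (95% interval -0.32 to -0.02, edgeR adjusted p = 0.104). Leaving out control 1 gave -0.22 and a call (edgeR adjusted p = 0.0258), whereas leaving out controls 3 and 4 gave -0.08 (edgeR adjusted p = 0.427).

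Id4 (chromosome 13, 48261228 to 48266026, plus strand) had 236.2, 222.1, 201.9, 203.8 and 220.5 CPM in the controls and 243.3, 226.9, 220.7, 241.3 and 257.2 CPM with Areg. Controls 3 and 4 were its lowest libraries, and the groups overlapped. The log2 fold change was 0.13 (95% interval 0.02 to 0.25, edgeR adjusted p = 0.103). It was 0.17 and called without control 1 (edgeR adjusted p = 0.0379), and 0.07 without controls 3 and 4 (edgeR adjusted p = 0.308). With the length and GC trend removed it was 0.02. Id2 (chromosome 12, 25093799 to 25097140, minus strand) had 52.5 ± 3.00 and 51.8 ± 4.09 CPM, a log2 fold change of -0.02 (95% interval -0.15 to 0.11, edgeR adjusted p = 0.876). For Id2 it was 0.03 without controls 3 and 4. With the length and GC trend removed it was -0.20, just short of a call (edgeR adjusted p = 0.0511).

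**Figure D3:**
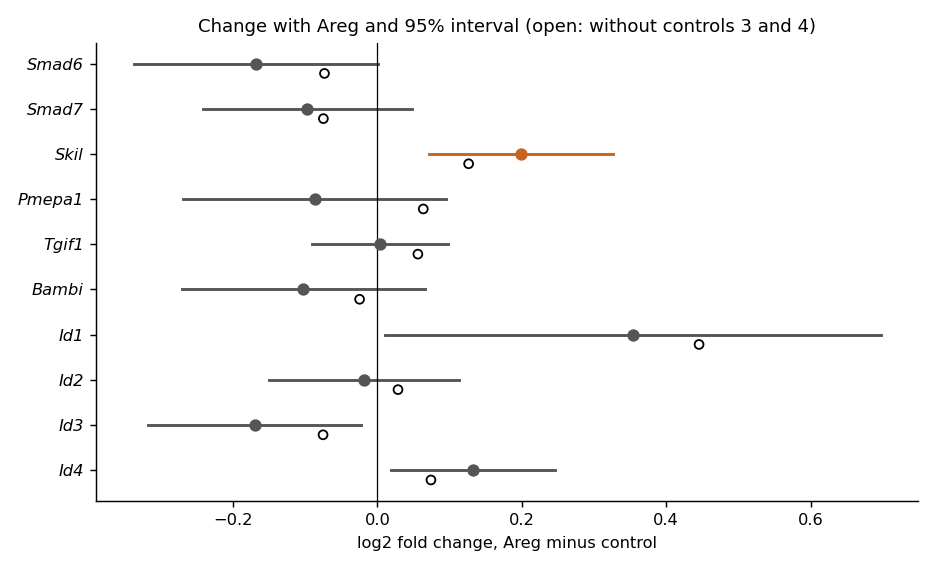
Log2 fold change (Areg minus control) of each gene with its 95% interval from the edgeR fit of all 10 libraries (filled points and lines; orange where called) and without controls 3 and 4 (open circles). Only the filled point of Skil, at 0.20, is called; Id1 has the widest interval, and Pmepa1 and Id2 change sign without the 2 controls.

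No shift between transcript forms of these genes passed a test. Bambi and Id4 had 1 counted transcript each, and in Smad6, Id1, Id2, Id3 and Smad7 the leading form held 89.0 to 99.9% of the gene's counts. Skil was counted mostly on a form of 6578 bases (79.8%). Pmepa1 and Tgif1 had a second form above 10% of counts. The shorter Pmepa1 form, of 720 bases, held 23.3 ± 4.51% of the gene's counts in control and 21.9 ± 2.16% in Areg libraries, with controls 3 and 4 highest at 28.5 and 27.6%. In TPM, which allows for length, the same form held 70.1 ± 5.41% in control and 67.9 ± 2.87% in Areg libraries. The place of Pmepa1 in the order by TPM therefore rests mostly on this short form. The second Tgif1 form, annotated as a retained intron, held 10.4 ± 1.40 and 11.3 ± 0.701%. Of 4 forms tested by a two-sided exact permutation test, 0 passed and 0 had an unadjusted p under 0.05, with unadjusted p from 0.286 to 0.865 and a smallest adjusted p of 0.847.

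Other genes of the pathway, read from lists of the same response, gave the setting. Counts of calls in these lists stand beside 8.34% of all genes tested called higher and 8.32% called lower. An unadjusted edgeR p under 0.05 was found for 31.4% of all genes tested. Inhba, the activin A subunit, had 754 ± 90.6 CPM in control and 1449 ± 89.0 CPM in Areg libraries, a rise of log2 0.94 (edgeR adjusted p = 1.06e-06). Among 16 tested ligand genes, 3 rose and 4 fell, with a median of -0.05; without controls 3 and 4, 3 rose and 2 fell. Bmp10 and Bmp2 rose by log2 0.48 and 0.31, and Bmp6 had a log2 fold change of -0.36. Bmp2 and Bmp6 are BMPs that liver endothelial cells are known to make. Gdf2 (-0.38), Gdf10 (-0.33) and Bmp1 (-0.25), which were named after their values were seen, also fell; Bmp1 encodes a protease rather than a signalling ligand. The calls of Bmp1 and Gdf10 were lost under 11 and 6 of 25 settings, among them without controls 3 and 4, where the values were -0.17 and -0.25.

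Receptors and transducers gave 1 call. Of 11 tested receptor genes Bmpr2, the type II BMP receptor, rose and 0 fell. An unadjusted edgeR p under 0.05 was found for 3 (27.3%), all higher, beside 31.4% of all genes tested in either direction. Bmpr2 had 446.5 ± 57.3 CPM in control and 548.0 ± 19.7 CPM in Areg libraries, a rise of log2 0.29 (edgeR adjusted p = 0.0120) that was lost under 2 of 25 settings and was 0.18 without controls 3 and 4. The other 2 were Tgfbr1, the type I TGF-beta receptor, at log2 0.20 (edgeR adjusted p = 0.0801), and Acvr1, a type I BMP receptor, at 0.13 (edgeR adjusted p = 0.113). Tgfbr1 was called in 2 of 25 settings and Acvr1 in 1, both of them without control 1. Without controls 3 and 4 they were at 0.10 and 0.07 and not called. Tgfbr3 was at -0.05 and not called (edgeR adjusted p = 0.541). Among the Smad transducers 0 of 5 tested genes were called by edgeR or DESeq2, and 1 had an unadjusted edgeR p under 0.05. Smad3, with the smallest p, was at log2 0.13 (edgeR adjusted p = 0.106) and was called higher in 3 of 25 settings. It was called without control 1 and with the length and GC trend removed (0.22). It was also called with that trend removed and controls 3 and 4 left out as well (0.19). When only controls 3 and 4 were left out, Smad3 was at 0.12 and not called (edgeR adjusted p = 0.1125). Smad2, Smad4 and Smad5 had log2 fold changes of 0.05, -0.06 and 0.07. Smad9 was too low to test.

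A list of other regulators of the pathway, not all of them restrainers, went both ways. Of 16 tested, 1 rose and 2 fell, and the list's median was 0.03; without controls 3 and 4, 3 rose and 2 fell. Ski, the paralog of Skil and likewise a Smad corepressor, was lower, with 150.8 ± 13.01 CPM in control and 130.5 ± 4.03 CPM in Areg libraries and no overlap between the groups (log2 fold change -0.21, edgeR adjusted p = 0.0174). Under 6 of 25 settings the call was lost; with the length and GC trend removed the value was -0.08, and without controls 3 and 4 it was -0.13 and called. Spsb1 had a log2 fold change of -0.33 (edgeR adjusted p = 0.000825) and was called in all 25 settings. Usp15, a deubiquitinase, rose by log2 0.22, a call lost under 8 settings, and was at 0.14 without controls 3 and 4. Strap, at log2 0.12, missed the threshold (edgeR adjusted p = 0.0523) but was called in 4 other settings. DESeq2 and the fit without controls 3 and 4 were among them. DESeq2 called 3 of the 16 genes of this list higher and 2 lower. Among 8 tested BMP antagonists 0 were called by edgeR or DESeq2, and 0 had an unadjusted p under 0.05; Bmper, Fstl1, Twsg1 and Nbl1 had log2 fold changes of 0.07 to 0.18.

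Target genes of the 2 branches and bHLH factors completed the lists. Of 14 tested TGF-beta targets, 2 rose and 5 fell, with a median of -0.17; without controls 3 and 4 it was 2 and 4, with a median of -0.07. Ccn2, which encodes a matricellular growth factor, had 182 ± 29.7 CPM in control and 366 ± 62.5 CPM in Areg libraries, a rise of log2 1.00 (edgeR adjusted p = 0.00147). Fn1, Itgb5 and Tgfbi had log2 fold changes of -0.19, -0.29 and -0.21. The other calls, named after their values were seen, were a rise of Tagln (0.18) and falls of Cdkn2b (-0.34) and Col1a1 (-0.34); the groups overlapped for Tagln, Cdkn2b and Col1a1, and the calls of Tagln and Col1a1 were lost under 9 and 8 settings, that of Col1a1 also without controls 3 and 4 (-0.30). Fn1 lost its call with the length and GC trend removed (-0.08). Itgb5 lost its call only when that trend was removed and controls 3 and 4 were left out as well (-0.16). Among 6 tested BMP targets other than Id genes 0 were called by edgeR or DESeq2. An unadjusted edgeR p under 0.05 was found for 2 (33.3%), beside 31.4% of all genes tested. The list's median log2 fold change was -0.30, and -0.19 without controls 3 and 4. Its values ran from -0.79 to 0.44, and the highest control mean among its tested genes was only 9.24 CPM. Atoh8, a BMP target that encodes a bHLH factor, had 2.59 CPM in control and 1.54 CPM in Areg libraries (log2 fold change -0.73, edgeR adjusted p = 0.113). It was called in 3 of 25 settings and was at -0.37 without controls 3 and 4. Runx2, an osteogenic factor, went the other way, at 2.92 CPM in control and 3.99 CPM in Areg libraries, or log2 0.44 (edgeR adjusted p = 0.0947). Msx1, at 1.14 and 0.68 CPM, had a log2 fold change of -0.79, and Gata2 one of -0.27. Neither was called (edgeR adjusted p = 0.222 and 0.193). Of 11 tested bHLH factors 0 rose and 2 fell, or 1 without controls 3 and 4. Bhlhe41, a clock repressor, had a log2 fold change of -0.83 (edgeR adjusted p = 0.000308) and was called in all 25 settings. Tcf3, an E protein gene, was at -0.21 (edgeR adjusted p = 0.0323). Tcf3 missed the threshold with the same sign under 12 settings and was at -0.11 without controls 3 and 4 and 0.01 with the length and GC trend removed. Tcf4, another E protein gene, was at 0.11 and was not called (edgeR adjusted p = 0.128). Tcf21 was at -0.22 and was not called either (edgeR adjusted p = 0.161). Each of these 2 was called in 1 of 25 settings, without control 1.

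**Figure D4:**
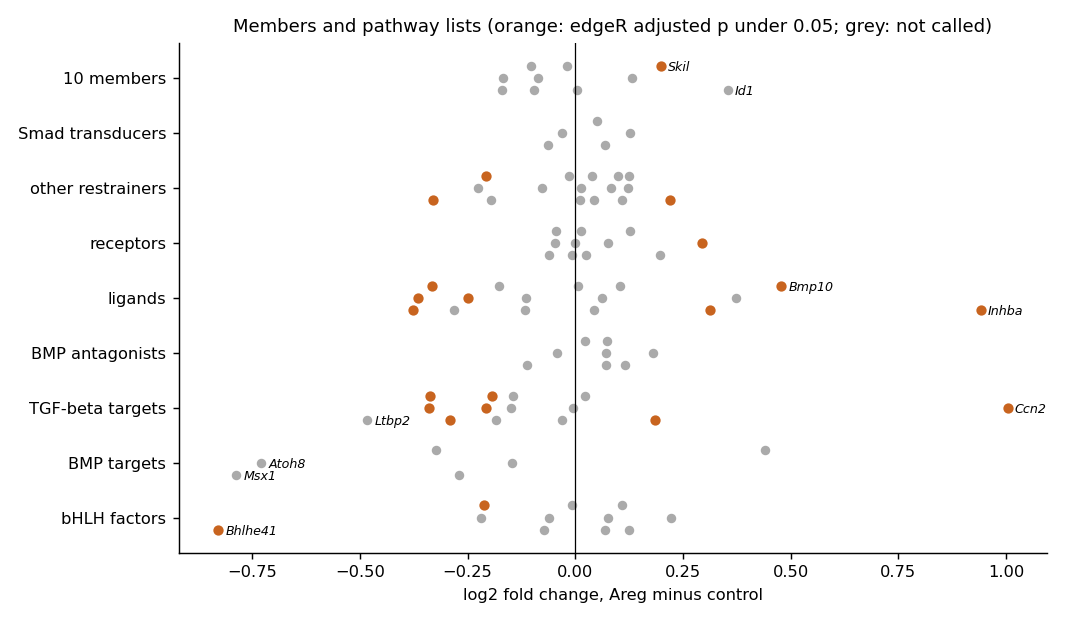
Log2 fold change (Areg minus control) of every tested gene of the 10 members and of each pathway list; orange points had an edgeR adjusted p under 0.05 and grey points did not. The members lie between -0.17 and 0.35, while Inhba and Ccn2 reach 0.94 and 1.00 and Bhlhe41 -0.83.

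The genes whose profile over the 10 libraries lay closest to that of Skil were Kdm6a, Chm and Ipo7. Likeness was the root mean square difference of log2 CPM after centring each gene on its mean. It was 0.025, 0.026 and 0.029 for these genes, and the median over 9780 candidate genes was 0.18. Kdm6a encodes a histone demethylase, Chm a Rab escort protein and Ipo7 a nuclear import receptor. Their log2 fold changes were 0.20, 0.21 and 0.23, beside 0.20 for Skil. Without controls 3 and 4 they were 0.11, 0.15 and 0.13, beside 0.13 for Skil. With the length and GC trend removed they were 0.09, 0.05 and 0.10, beside 0.10 for Skil. Because the genes were picked for matching Skil over these same libraries, this closeness follows from the choice, and no test of them is given.

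**Figure D5:**
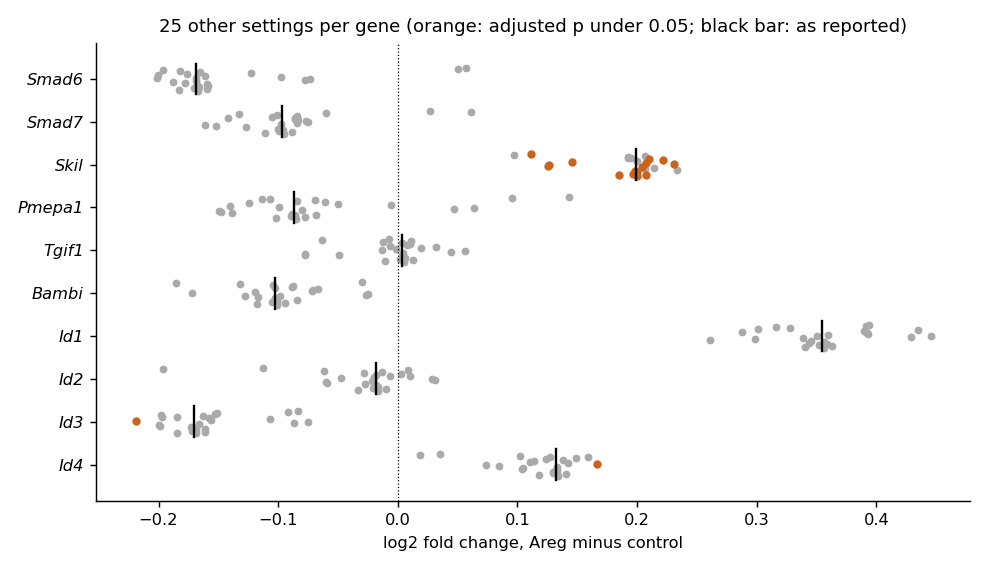
Log2 fold change of each gene under 25 other settings (points; orange where the adjusted p was under 0.05) beside the value reported above (black bar). Skil is above 0 in all settings and called in 16; Id3 and Id4 are called in 1 each, and the other 7 genes in 0.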

How the data were processed

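The 10 files hold kallisto output, 1 file per library. Per the file headers, the authors deposited estimated counts (expected counts that need not be whole), TPM, and transcript and effective lengths for 118489 transcripts. Listed in the submitters' processing notes, without roles, are GRCm38.p6, DESeq2, bcl2fastq 2.19 and kallisto 0.44.0; for strand and transcript set, the sources used here give nothing. Poly-A RNA and TruSeq chemistry are named in the labels' protocols. Estimation splits reads between similar transcripts, so single forms are less certain than gene sums.

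Transcripts were joined to GENCODE M21 genes (GRCm38); 116816 matched, and the others held 0.736 to 0.778% of counts and were left out. Counts were summed per gene and rounded. Areg was set against control with the quasi-likelihood F test of edgeR (version 4.0.16 under R 4.3.3; TMM factors, robust, no covariates) over 13363 genes kept by filterByExpr (minimum count 10, minimum total 15), with Benjamini-Hochberg adjustment over all of them and a threshold of 0.05. Intervals are 95%. For transcript shares, exact permutation tests (two-sided) were run and adjusted over the forms tested. Genes were named by rule: all members, up to 4 genes of smallest p per pathway list, and the 3 profiles nearest to Skil; no member was called lower, so no other was matched. One gene of the TGF-beta target list is not reported here and was left out of that list's counts. The members and lists were chosen with earlier results of these data known. Alternatives used DESeq2 1.42.0, limma 3.58.1 and sva 3.50.0; those that remove a trend in length and GC content were added after seeing the data.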

Additional observations from a re-analysis of the deposited data

Results flagged for a closer look

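In 7 of 102 groups of 5 libraries checked, over the members and the other named genes, a single library lay far from the other 4; chance gives about 1 in 20. Among the members this was Smad7 in control 5, at 27.7 CPM against 32.3 to 33.1 CPM in the other controls. Among the other genes, control 3 was low for Bmp10 (196.0 against 220.02 to 229 CPM) and high for Nbl1 (4.62 against 2.59 to 3.10 CPM). Control 4 was high for Ccn2 (234 against 161 to 178 CPM), and its log2 fold change without that library was 1.11. Control 5 was low for Col1a1 (25.8 against 34.6 to 36.8 CPM). Areg 3 was high for Bmp1 (28.1 against 24.7 to 25.7 CPM) and Areg 5 for Cdkn2b (25.5 against 18.4 to 19.7 CPM).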

How the results depend on the processing

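Of 250 values of the 10 members under other settings, 239 kept their side of the threshold, 9 lost a call (all Skil), 2 gained one (Id3 and Id4 without control 1) and 0 called values changed sign; 23 uncalled values changed sign. The number of members called higher (1) was 0 with the transcript length offset, on log2(TPM + 1) and log2(TPM + 0.1), and with the length and GC trend removed, and 0 to 2 with 1 library left out. The number called lower (0) was 0 to 1 with 1 library left out. The 2226 genes called in all became 1149 with the length offset, 856 on log2(TPM + 1) and 867 on log2(TPM + 0.1), where 37.6 and 37.5% of them were higher against 50.05% in the reported fit, and 1364 to 2314 with 1 library left out, the lowest without Areg replicate 2. The direction of Tcf3 reversed to 0.015 with the length and GC trend removed and to 0.011 when controls 3 and 4 were left out as well. The cause of these changes was not tested. Transcript forms called stayed at 0 under all settings, including every library left out. Same-numbered libraries of the 2 groups shared little (correlation of deviations -0.047 to 0.14, and 2 of 5 matched best with their own number), so the numbers were not taken to pair them. The replicate block gave 2357 calls, 1 member higher (Skil, log2 fold change 0.20) and 0 lower. Depth limits Id1 most, at 28 to 73 counts per library.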
